A study of Mus musculus with 12 samples.

Results

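The genes described here are 9 neuropeptide genes, Vip, Gal, Cartpt, Calca, Calcb, Adcyap1, Sst, Tac1 and Npy, out of 49671 gene identifiers in the RNAseq tables. They were found by matching identifiers to mouse symbols. They were chosen by their levels in these libraries, which were already known, and their levels and differences are therefore given as a description with no p-value. Bulk RNA was measured in 12 libraries from cranial motor neurons (cMNs) of wild-type mouse embryos that carry the Isl MN:GFP transgene, which marks motor neurons with GFP. The embryos came from C57BL/6J females and 129S1/C57BL/6J Isl MN:GFP males. GFP-positive cells were sorted from 3 motor nuclei: the oculomotor nucleus (cMN3), the trochlear nucleus (cMN4) and the facial nucleus (cMN7). Each nucleus was taken at embryonic days e10.5 and e11.5, which gives 6 groups of 2 libraries. Embryos of several litters were pooled and their sex was not determined, so the spread between the 2 libraries of a group is a spread between pools, and p-values measure only that spread. RNA at e11.5 was enriched on oligo-dT beads with depletion of globin and ribosomal RNA, whereas RNA at e10.5 went through a whole-transcriptome amplification. Age and library preparation cannot be told apart in any comparison of e11.5 with e10.5.

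Neuropeptides are cut from longer precursors inside the secretory pathway, stored in dense core vesicles and released to act on G protein-coupled receptors. Vip and Adcyap1 encode the related peptides VIP and PACAP, Gal encodes galanin, Sst somatostatin and Npy neuropeptide Y. Tac1 encodes substance P and neurokinin A, Cartpt the CART peptides, Calca calcitonin and calcitonin gene-related peptide (CGRP), and Calcb a further CGRP. CGRP is a well-known peptide of mature motor neurons, while VIP, galanin and somatostatin are better known from autonomic, sensory and central neurons.

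By the GENCODE annotation of GRCm38, Vip lies at chr10:5639218-5647617, Sst at chr16:23889573-23890958, Tac1 at chr6:7554879-7565834 and Adcyap1 at chr17:93199017-93206537. Gal lies at chr19:3409915-3414544, Cartpt at chr13:99898489-99901091, Npy at chr6:49822710-49829507, and the paralogs Calca and Calcb at chr7:114631478-114636357 and chr7:114718643-114723365. No member overlaps another annotated gene. A group of neuropeptide promoters carries the cAMP response element, a site through which cAMP signals act on transcription. The promoters of 4 members are shown because the results turn on the nucleus in which each was high: the 250 bases before the RefSeq start site in GRCm38.p6 are printed here 5′ to 3′ on the strand of the gene. Capitals mark the whole element TGACGTCA or its core, TGACG on either strand (CGTCA on the other). The Vip window is chr10:5638968-5639217 on the plus strand, that of Sst is chr16:23890845-23891094 on the minus strand, and that of Tac1 is chr6:7554811-7555060 on the plus strand. Adcyap1 has 2 windows, of which the one at chr17:93198767-93199016 on the plus strand is shown. The RefSeq start lies inside the GENCODE gene span for Tac1 and Sst, so that 182 of the 250 bases of the Tac1 window and 114 of those of the Sst window, the capitals near the start included, are inside the span.
Vip: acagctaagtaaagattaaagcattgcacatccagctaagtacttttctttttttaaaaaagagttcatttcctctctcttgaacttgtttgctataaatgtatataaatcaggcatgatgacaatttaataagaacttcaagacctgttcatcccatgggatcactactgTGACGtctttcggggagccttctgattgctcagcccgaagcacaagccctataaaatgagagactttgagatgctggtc
Sst: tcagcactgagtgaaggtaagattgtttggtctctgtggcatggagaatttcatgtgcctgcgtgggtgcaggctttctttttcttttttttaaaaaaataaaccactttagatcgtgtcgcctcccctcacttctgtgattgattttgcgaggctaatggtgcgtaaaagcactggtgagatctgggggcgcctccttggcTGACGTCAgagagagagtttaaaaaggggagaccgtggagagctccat
Tac1: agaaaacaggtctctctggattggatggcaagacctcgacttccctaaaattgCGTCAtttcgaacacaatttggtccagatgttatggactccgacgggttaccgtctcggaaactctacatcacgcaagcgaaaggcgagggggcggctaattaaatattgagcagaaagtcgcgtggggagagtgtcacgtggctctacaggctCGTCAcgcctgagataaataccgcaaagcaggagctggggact
Adcyap1: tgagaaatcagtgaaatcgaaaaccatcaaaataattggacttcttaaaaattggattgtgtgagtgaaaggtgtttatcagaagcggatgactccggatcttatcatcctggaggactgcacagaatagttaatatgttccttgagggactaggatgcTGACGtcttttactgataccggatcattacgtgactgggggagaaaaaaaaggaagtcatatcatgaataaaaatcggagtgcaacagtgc
The Sst window held the whole element 48 to 41 bases before the start, and Cartpt held it 112 to 105 bases before the start. Of all 32851 RefSeq windows of this length, 1.55% held the whole element and 17.8% held at least a core site. Vip had 1 core site, 79 bases before the start, and Tac1 had 2, at 197 and 43 bases. Calca had 1 core site at 65 bases and the Adcyap1 window shown had 1 at 91 bases. The windows of Gal and Npy held neither. The Vip window also held the letters TATAAA on the gene's strand 3 times, the nearest 30 bases before the start, a match found in 7.59% of all windows. These are matches of letters in a window, not measured sites. Sst and Cartpt, which share the whole element, had their highest levels in cMN4. So did Vip and Calca, with a core site, and Gal, with neither. Adcyap1 and Tac1, also with core sites, were highest in cMN7 and cMN3. Whether the matches have a part in the levels by nucleus was not tested.

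Library depth ranged from 13991802 to 30536210 counts. Genes above 0 numbered 16884 to 18000 in the e10.5 libraries of cMN3 and cMN4 and 20974 to 21184 in those of cMN7. The mitochondrial share of counts was 4.84% to 10.1% in the younger libraries and 1.36% to 1.83% in the older ones. All 11 motor neuron markers on the list were found in every group, with Isl1 between 377 and 694 CPM (counts scaled to the size of the library). Their summed level was highest in cMN7, at 9821 to 10163 CPM at e10.5 and 11304 to 13455 CPM at e11.5, against 7786 to 8499 CPM and 4183 to 4956 CPM in cMN3 and 7681 to 7796 CPM and 5810 to 8368 CPM in cMN4. Against cMN7, 7 of the 11 passed the test as lower and 1 as higher in cMN3, and 8 as lower and 1 as higher in cMN4. Of 14 markers of sensory ganglia, 12 to 14 were above 0 in each group, with a summed level of 510 to 783 CPM in the cMN4 libraries and 213 to 436 CPM in the others. Of the 12 tested, 2 were higher and 5 lower in cMN4 than in cMN7, 2 were higher and 7 lower in cMN3 than in cMN7, and 2 were higher and 5 lower in cMN3 than in cMN4. Eya1 made up most of the sum in cMN4, at 371 to 662 CPM. Of the 8 sympathetic markers, 5 to 7 were above 0 in each group with a summed level of 40.1 to 265 CPM, highest in cMN7 at e10.5. Other lists were compared between the ages, where 26.6% of all genes tested were higher and 23.1% lower at e11.5. The summed level of interneuron markers was 17.2 to 105 CPM in the younger and 43.2 to 154 CPM in the older libraries, with 7 of 10 higher at e11.5, and Slc32a1 and Slc6a5 at 0 in both ocular motor nuclei at e10.5. Erythroid markers went from 13.2 to 54.5 CPM to 31.4 to 129 CPM, with 6 of 7 higher. For neural crest and glia, 1 of 5 was higher, with sums of 10.6 to 93.0 CPM over all libraries. Of the endothelial markers 2 of 4, and of the mesenchymal markers 3 of 6, were lower at e11.5, with sums of 1.02 to 26.0 CPM and 4.01 to 86.3 CPM. The part of these lists in the results that follow was not tested. In bulk samples, fewer cells of a type and less RNA per cell cannot be told apart.

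In TPM, a level scaled to transcript length and library size, the 9 genes together were highest in cMN4 and lowest in cMN3, and the leading gene differed between groups. Their summed level was 347 and 260.4 TPM in the cMN4 libraries at e10.5 and 316 and 245 TPM at e11.5. In cMN7 the sums were 169 and 143 TPM at e10.5 and 221 and 194 TPM at e11.5. In cMN3 the sums lay between 103 and 113 TPM at both ages. Sst took the largest share in cMN4 at e10.5, at 42.4% of the group's summed TPM, and Vip at e11.5, at 48.0%. In cMN7 Adcyap1 led at both ages, with 62.9% at e10.5 and 42.8% at e11.5 by the group mean, although Gal led in replicate 1 at e11.5, at 82.8 TPM. In cMN3 Gal led at e10.5, with 41.3%, and Tac1 at e11.5, with 35.6%. Gal had the highest mean over all 12 libraries, at 56.1 TPM, followed by Adcyap1 at 49.5 TPM, Sst at 34.3 TPM and Vip at 31.0 TPM. Npy and Calca stayed at or below 10.7 and 10.2 TPM, and Calcb at or below 0.10 TPM.

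**Figure D1:**
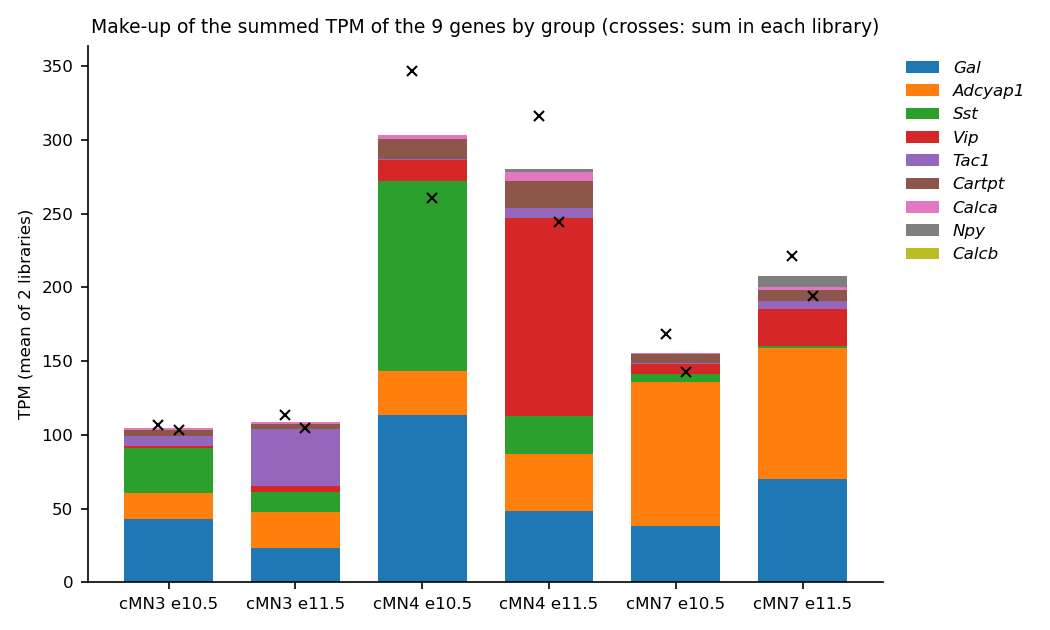
Mean TPM of each of the 9 genes, stacked for each of the 6 groups (2 libraries each), with crosses at the sum in each library. The bars for cMN4 reach 303 TPM at e10.5, where Sst is the largest part, and 280 TPM at e11.5, where Vip is, while both cMN3 bars end near 105 to 109 TPM.

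Within each age Vip was highest in the trochlear nucleus, present in the facial nucleus at lower levels and scarce in the oculomotor nucleus. On the CPM scale with library scaling by trimmed means (TMM), which is used for all levels that follow, the cMN4 libraries at e11.5 held 96.2 and 68.8 CPM, and those at e10.5 held 11.6 and 12.4 CPM. The cMN7 libraries held 17.6 and 15.9 CPM at e11.5 and 3.93 and 5.2 CPM at e10.5. In cMN3 the level was 2.59 and 2.98 CPM at e11.5 and 1.21 and 0.522 CPM at e10.5. Ordered by mean level, the 6 groups ran from cMN4 at e11.5 through cMN7 at e11.5, cMN4 at e10.5, cMN7 at e10.5 and cMN3 at e11.5 to cMN3 at e10.5, and no neighbours in that order overlapped. These levels rest on 2452 and 2562 counts in cMN4 at e11.5 but on 23 and 6 counts in cMN3 at e10.5. The fitted log2 difference of cMN3 from cMN4 was -4.28 (SE 0.22), or 19.5-fold lower over both ages. It was -3.69 (SE 0.34) at e10.5 and -4.88 (SE 0.30) at e11.5. The difference of cMN4 from cMN7 was smaller, at 1.84 (SE 0.19) over both ages. By age it was 1.39 (SE 0.28) at e10.5 and 2.30 (SE 0.27) at e11.5. Between the ages Vip was higher at e11.5 in all 3 nuclei, by log2 differences of 1.59 (SE 0.35) in cMN3, 2.79 (SE 0.28) in cMN4 and 1.87 (SE 0.28) in cMN7. Leaving out cMN3_e10.5 replicate 1, the log2 difference between ages in cMN3 was 2.43 and that of cMN3 from cMN4 at e10.5 was -4.50. The sensory marker Avil stood at 40.9 to 55.3 CPM in the 4 cMN4 libraries and at or below 3.86 CPM in the other 8. Of the 12 sensory markers tested, 2 were higher and 5 lower in cMN4 than in cMN7. Against cMN4, 2 were higher and 5 lower in cMN3. The summed level of the whole list was highest in cMN4, at 510 to 783 CPM, against 213 to 436 CPM in the others. The part of Avil and of this list in the cMN4 levels of Vip, Sst, Gal, Cartpt and Galr1 was not tested.

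Adcyap1, the precursor of PACAP, had the opposite leading nucleus. The cMN7 libraries held 100 and 88.1 CPM at e10.5 and 82.7 and 81.7 CPM at e11.5. In cMN4 the level was 34.4 and 33.8 CPM at e10.5 and 38.1 and 28.2 CPM at e11.5. The cMN3 libraries held 22.8 and 32.6 CPM at e10.5 and 20.2 and 22.2 CPM at e11.5. All 4 cMN7 libraries were therefore above the other 8, and the ranges of cMN4 at its ages overlapped each other. The log2 difference from cMN7 was -1.86 (SE 0.14) for cMN3 and -1.39 (SE 0.14) for cMN4, which is 3.64- and 2.62-fold lower. Between the ages the log2 difference of e11.5 from e10.5 was -0.38 (SE 0.20) in cMN3, -0.04 (SE 0.20) in cMN4 and -0.20 (SE 0.19) in cMN7. On log2(TPM + 1) that sign turned in the ocular motor nuclei, to 0.48 in cMN3 and 0.39 in cMN4, but not in cMN7 (-0.14). Pou4f1, a transcription factor gene among the sensory markers, stood at 26.7 to 68.4 CPM in cMN7 and at 2.11 to 7.10 CPM elsewhere. Of the 12 sensory markers tested, 5 were lower and 2 higher in cMN4 than in cMN7. In cMN3, 7 were lower and 2 higher than in cMN7. The summed level of the whole list was highest in cMN4, at 510 to 783 CPM, against 213 to 436 CPM in cMN7. The part of Pou4f1 and of this list in the level of Adcyap1 was not tested.

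Gal, the galanin precursor, moved with age in opposite directions in the nuclei. Its highest libraries were those of cMN4 at e10.5, at 33.5 and 37.9 CPM, against 14.5 and 9.02 CPM in cMN4 at e11.5. In cMN3 it stood at 14.1 and 24.6 CPM at e10.5 and at 5.64 and 5.65 CPM at e11.5. In cMN7 the order was the other way, with 11.8 and 8.19 CPM at e10.5 and 23.4 and 13.9 CPM at e11.5. Within each nucleus the libraries of the ages did not overlap. The middle of the order was crowded, since cMN3 at e10.5, cMN7 at e11.5, cMN4 at e11.5 and cMN7 at e10.5 each overlapped the next. The log2 difference of e11.5 from e10.5 was -1.77 (SE 0.36) in cMN3, -1.61 (SE 0.35) in cMN4 and 0.89 (SE 0.35) in cMN7. Against cMN7, cMN3 was thus higher at e10.5 (log2 difference 0.94, SE 0.35) and lower at e11.5 (-1.72, SE 0.35). The first of these was 0.47 without cMN3_e10.5 replicate 2 and 0.20 on log2(TPM + 1), and the age difference in cMN7 was 0.49 without cMN7_e11.5 replicate 1. For cMN4 the log2 differences from cMN7 were 1.83 (SE 0.35) at e10.5 and -0.67 (SE 0.34) at e11.5, the latter -0.24 without that replicate of cMN7.

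Sst, which encodes the inhibitory peptide somatostatin, was high in the ocular motor nuclei (cMN3 and cMN4) at e10.5 and low in the facial nucleus. The cMN4 libraries held 31.0 and 31.3 CPM at e10.5 and 5.10 and 4.56 CPM at e11.5. In cMN3 the level was 10.9 and 9.57 CPM at e10.5 and 3.23 and 1.97 CPM at e11.5. In cMN7 it was 0.774 and 1.53 CPM at e10.5 and 0.164 and 0.441 CPM at e11.5, the last from 4 and 12 counts. No neighbouring groups overlapped in this order, and within each nucleus both e10.5 libraries were above both e11.5 libraries. Over both ages the log2 difference from cMN7 was 3.11 (SE 0.32) for cMN3 and 4.35 (SE 0.33) for cMN4. The log2 difference of e11.5 from e10.5 was -1.98 (SE 0.40) in cMN3, -2.69 (SE 0.40) in cMN4 and -1.89 (SE 0.51) in cMN7. Without replicate 2 of cMN7 at e11.5 that last value was -2.76, and the differences from cMN7 at e11.5 became 3.95 for cMN3 and 4.85 for cMN4, from 3.06 and 3.95.

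Tac1, the source of substance P, was the 1 member highest in the oculomotor nucleus, leaving aside the 2 counts of Calcb. In cMN3 it stood at 14.9 and 10.8 CPM at e11.5 and at 3.96 and 6.0 CPM at e10.5. The e11.5 libraries held 2.71 and 1.69 CPM in cMN4 and 2.46 and 1.47 CPM in cMN7, which overlapped. At e10.5 cMN7 held 2 and 4 counts, and cMN4 held 0 and 1 count. All 4 cMN3 libraries were above the other 8. By summed counts over summed library sizes, the e10.5 level in cMN3, from 144 counts, was 125 times that in cMN4, from 1 count, with a 95% counting interval of 22.1 to 4975. At e11.5, where counts were higher, the log2 difference of cMN3 was 2.55 (SE 0.52) from cMN4 and 2.71 (SE 0.53) from cMN7. Values for Tac1 that use cMN4 at e10.5 depend on that single count: over both ages cMN3 differed from cMN4 by 4.68 (SE 0.50) on the log2 scale, by 4.09 without replicate 1 of cMN4 at e10.5 and by 6.17 without replicate 2. Likewise its log2 difference between the ages over all nuclei was 3.47 (SE 0.41), and 4.49 without that replicate 2.

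Npy, which encodes an abundant peptide of sympathetic and central neurons, had 0 counts in all 6 libraries at e10.5. At e11.5 it had 54 and 21 counts in cMN7, 10 and 11 in cMN4 and 1 and 1 in cMN3. In CPM that is 2.21 and 0.772 in cMN7, 0.392 and 0.295 in cMN4 and 0.0376 and 0.0335 in cMN3, with no overlap between the nuclei. The level in cMN7 at e11.5 was at least 16.1-fold higher than at e10.5, taking 3 counts over a group as the floor and, as in every such ratio here, counts and library sizes summed over the group. Against cMN3 at e11.5 the cMN7 level was 41.0 times as high (95% counting interval 10.97 to 345). These intervals, and the ratios given as at least, cover counting error only and not the spread between libraries. Of the 8 sympathetic markers at e11.5, 6 were above 0 in cMN7 (summed level 82.4 to 95.7 CPM), 6 in cMN4 (82.0 to 86.9 CPM) and 7 in cMN3 (40.1 to 61.3 CPM), with Hand2 at 0 in all 12 libraries, and their part in the level of Npy was not tested.

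Cartpt, Calca and Calcb were low. Cartpt stood at 5.18 and 6.32 CPM in cMN4 at e10.5, at 7.65 and 3.76 CPM in cMN4 at e11.5, at 1.80 and 3.39 CPM in cMN3 at e10.5 and at 0.978 and 0.97 CPM in cMN3 at e11.5. In cMN7 its libraries held 2.08 and 2.26 CPM at e10.5 and 3.85 and 1.47 CPM at e11.5. All 4 cMN4 libraries were above all 4 cMN3 libraries, and the log2 difference of cMN3 from cMN4 was -1.85 (SE 0.40). In cMN7 the libraries at e11.5 straddled those at e10.5, and without the higher of the pair, replicate 1, the log2 difference of e11.5 from e10.5 there went from 0.29 to -0.54. Calca had 180 counts in all 12 libraries. Of these, 79 came from replicate 2 of cMN4 at e11.5, at 2.12 CPM, while replicate 1 had 18 counts and 0.706 CPM. The other Calca libraries ranged from 0.122 CPM in cMN7 to 1.14 CPM in cMN4, both at e10.5. Calcb had 2 counts in all and was not tested.

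**Figure D2:**
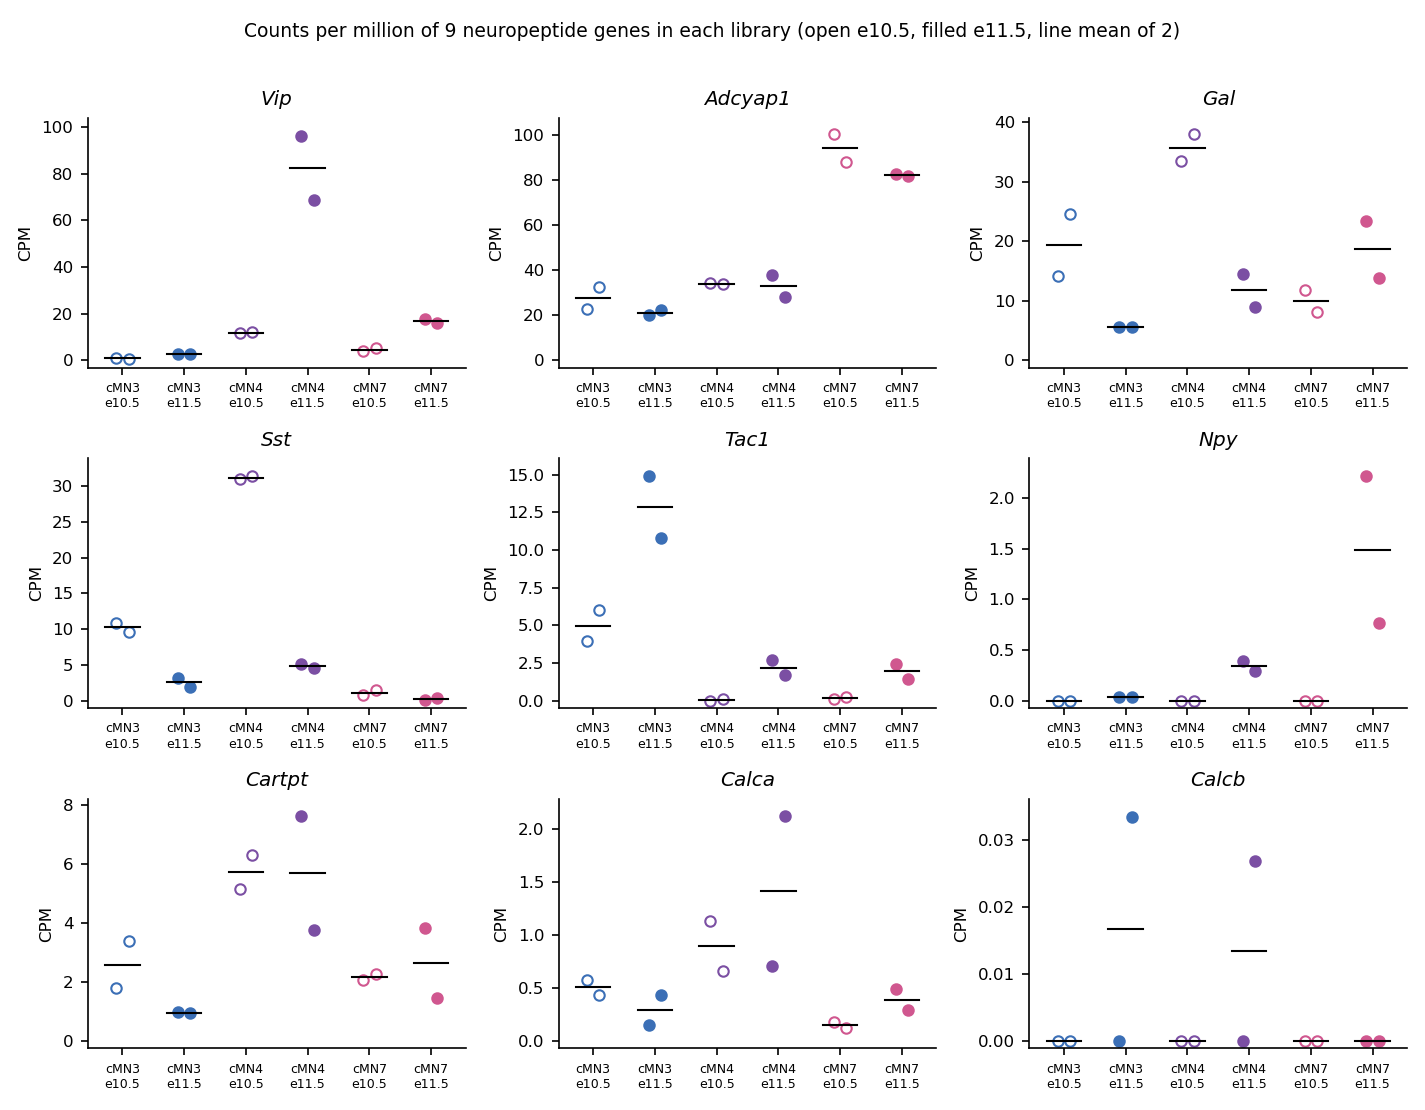
TMM-scaled CPM of each of the 9 genes in the 12 libraries (open circles e10.5, filled circles e11.5, lines the mean of 2), with a separate linear axis for each gene. Vip peaks in cMN4 at e11.5 at 68.8 and 96.2 CPM, Adcyap1 in cMN7 above 81 CPM, Sst in cMN4 at e10.5 near 31 CPM and Tac1 in cMN3 at e11.5 between 10.8 and 14.9 CPM.

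Of the 9 members, 8 passed the filter on low counts and were fitted with all 18022 genes that passed, by edgeR's quasi-likelihood test at a Benjamini-Hochberg adjusted p of 0.05. Between cMN3 and cMN7, 4 of the 8 were past that threshold, 2 in each direction, against 11.3% of all genes. Between cMN4 and cMN7 it was 3 of 8 (2 higher, 1 lower in cMN4) against 9.62% of all genes, and 3 to 5 when processed in other ways, with 5 in DESeq2 and with no filter on low counts. Between cMN3 and cMN4 it was 5 of 8, 1 higher and 4 lower in cMN3, against 7.06% of all genes (3.57% higher and 3.48% lower), and 2 to 6 when processed in other ways. Leaving out 1 library gave a count of 2 for cMN3_e11.5 replicate 2 and cMN4_e10.5 replicate 2, and of 3 for replicate 1 of any cMN3 or cMN4 group. Between the ages it was 5 of 8, 3 higher and 2 lower at e11.5, against 49.8%. Nothing is read from these counts, because the members were chosen with such values known. Over the 8 members the median log2 difference was -0.50 for cMN3 against cMN7, 0.92 for cMN4 against cMN7, -1.39 for cMN3 against cMN4 and 0.098 for e11.5 against e10.5. Over all genes tested the same medians were -9.48e-05, -0.0080, 0.0024 and 0.043.

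**Figure D3:**
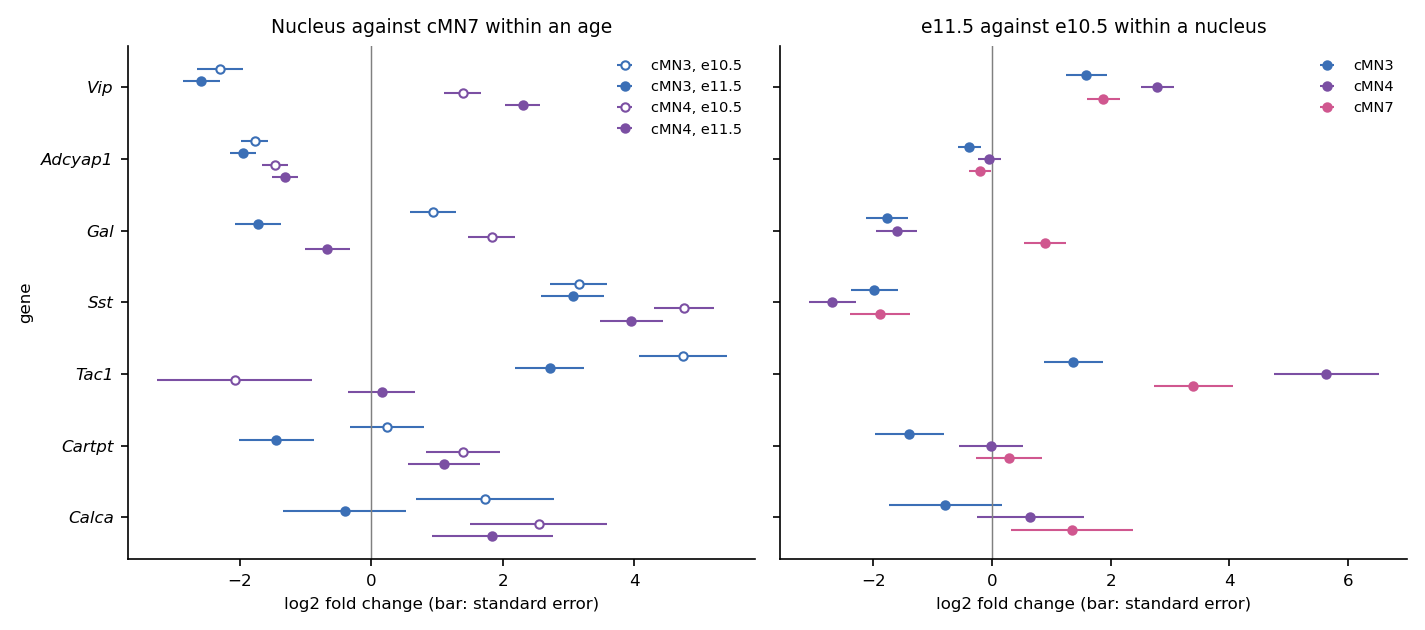
Fitted log2 fold changes of 7 members, with bars for the standard error: on the left cMN3 and cMN4 against cMN7 within each age (open circles e10.5, filled circles e11.5), on the right e11.5 against e10.5 within each nucleus. Adcyap1 lies left of 0 and Sst right of 0 in both ocular motor nuclei, and Gal has its cMN7 age difference (0.89) on the other side of 0 from those of cMN3 (-1.77) and cMN4 (-1.61).

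The members did not rise and fall as a block over the 12 libraries. The closest pair was Gal and Cartpt, with a Pearson r of 0.73 of log2 CPM, followed by Vip and Cartpt at 0.58. Adcyap1 and Sst had the most opposed pattern, with an r of -0.62. The libraries share nucleus, age and preparation, so these values only describe the pattern. Among all genes tested, those whose pattern was most like that of Vip were Rgs7 (r 0.95), Mc4r (0.93) and Plekhd1 (0.93). Mc4r, a melanocortin receptor gene, stood at 9.21 and 12.7 CPM in cMN4 at e11.5 and at or below 4.36 CPM elsewhere. For Adcyap1 they were Sdk1 (r 0.98), a cell adhesion gene, Nid2 (0.98) and Pou4f1 (0.97). Sst was closest to Mylk (0.97), the transcription factor gene Sox6 (0.97) and Crybg3 (0.96). Tac1 was closest to Rgs2 (0.97), a regulator of G protein signalling, Smarca2 (0.97) and Smim18 (0.96). Gal ran closest to Cct4 (0.90), Eif3b (0.90) and Kcnj12 (0.90), Cartpt to Rrs1 (0.92), Dnah11 (0.90) and Srm (0.90), Calca to Jpt2 (0.93), Kmt5a (0.91) and Tmem97 (0.90), and Npy to Ctnnbl1 (0.96), Calm2 (0.96) and Htr2c (0.92).

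The receptors of these peptides were examined as a list of 24 genes, of which Galr3 was not matched, 23 were matched and 16 passed the filter. Receptor genes that differed between nuclei were mostly higher in the facial nucleus. Against cMN7, 5 of 16 were lower and 0 higher in cMN3, and 5 were lower and 1 higher in cMN4, beside 5.89% lower and 5.44% higher for all genes in the first comparison and 4.89% lower and 4.73% higher in the second. At an unadjusted p of 0.05 and by DESeq2 the number higher in cMN3 was also 0. On log2(TPM + 1) the first comparison called 386 of all genes higher and 1335 lower in cMN3, against 981 and 1062 here. The list's median log2 difference was -1.40 in the first and -0.27 in the second, or -0.99 and -0.24 with groups at 0 counts set at the floor of 3 counts. The same 5 genes were lower in both, and both comparisons use the same cMN7 libraries. Most motor neuron markers were also higher in cMN7. In cMN3 against cMN7, 4 of 10 interneuron markers were lower and 1 higher, and 3 of 6 sympathetic markers were lower and 0 higher. In cMN4, 2 of the 10 were lower and 1 higher, and 2 of the 6 lower and 1 higher. Of 12 sensory markers, 7 were lower and 2 higher in cMN3, and 5 lower and 2 higher in cMN4. In cMN3, 1 of 5 neural crest and glia markers and 1 of 4 endothelial markers were higher. The part of these lists in the receptor levels was not tested.

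Adcyap1r1, the receptor that prefers PACAP, was the receptor gene with the highest level, at a mean of 47.4 TPM. Its level was 175 and 167 CPM in cMN7 at e10.5 and 210 and 214 CPM at e11.5. The cMN3 libraries held 69.4 and 71.6 CPM at e10.5 and 129 and 129 CPM at e11.5, and the cMN4 libraries 65.7 and 66.0 CPM at e10.5 and 114 and 90.4 CPM at e11.5. At both ages ligand and receptor were thus highest in cMN7. The log2 difference from cMN7 was -1.0 (SE 0.095, adjusted p = 2.88e-05) for cMN3 and -1.21 (SE 0.096, adjusted p = 6.77e-06) for cMN4. It rose by 0.61 (SE 0.078, adjusted p = 8.91e-05) from e10.5 to e11.5. The other receptors that bind VIP and PACAP were low: Vipr1 did not exceed 0.832 CPM or Vipr2 1.60 CPM in any library, and neither passed the test between nuclei or ages.

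Sstr2, a somatostatin receptor, was higher in cMN7, where its ligand was scarce. The cMN7 libraries held 28.2 and 33.3 CPM at e10.5 and 33.5 and 36.3 CPM at e11.5, above all 8 other libraries, which ranged from 6.08 to 27.0 CPM. Its log2 difference from cMN7 was -1.25 (SE 0.21, adjusted p = 0.00248) for cMN3 and -1.70 (SE 0.22, adjusted p = 0.000307) for cMN4. Calcrl, the shared receptor subunit for CGRP and adrenomedullin, stood at 13.6 and 13.3 CPM in cMN7 at e10.5 and 2.17 and 5.92 CPM at e11.5, against 0.0943 to 1.97 CPM in the ocular motor nuclei. The log2 differences from cMN7 were -2.61 (SE 0.42, adjusted p = 0.00154) for cMN3 and -3.45 (SE 0.45, adjusted p = 0.000356) for cMN4. Ramp1, the partner with which it forms the CGRP receptor, had 8 counts in all libraries and was not tested.

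Npy1r and Tacr3 completed the 5 genes. Npy1r, a neuropeptide Y receptor, had 0 counts in cMN3 and cMN4 at e10.5 and 1.37 and 1.83 CPM in cMN7. With the floor of 3 counts over a group, that is at least 16.2-fold and 14.1-fold higher. The floor covers counting error only, and replicates of cMN3 and of cMN4 at e10.5 differed beyond sampling noise. At e11.5 Npy1r stood at 2.13 and 2.46 CPM in cMN7. It was at 0.432 and 0.456 CPM in cMN4 and 0.263 and 0.234 CPM in cMN3, the same order of nuclei as for Npy. The adjusted p against cMN7 was 0.00166 for cMN3 and 0.00305 for cMN4. Tacr3, a tachykinin receptor, had 5.90 and 5.77 CPM in cMN7 at e11.5 and at most 0.489 CPM in the ocular motor nuclei, with an adjusted p of 0.00241 for cMN3 and 0.00106 for cMN4. Galr1, a galanin receptor, was found mainly in cMN4: 4.23 and 3.21 CPM at e10.5 and 1.41 and 1.07 CPM at e11.5. Its ligand gene Gal was highest in cMN4 at e10.5. At e11.5 mean Gal was higher in cMN7 (18.6 CPM) than in cMN4 (11.7 CPM). In cMN7 Galr1 had 10 counts at e10.5 and 5 at e11.5, and its difference between cMN4 and cMN7 did not pass the test. Both cMN3 libraries at e10.5 had 0 counts of Galr1, a level at least 38.8-fold lower than in cMN4 by counting error alone. Its adjusted p for cMN3 against cMN4 was 0.0129, and 0.0658 without replicate 2 of cMN3 at e11.5. It was the 1 receptor gene past the test in that comparison. Calcr, the calcitonin receptor, was higher in cMN4 than in cMN7 (log2 difference 3.45, SE 0.93, adjusted p = 0.0389), but that call was lost without any 1 of 9 libraries, with an adjusted p of up to 0.169. The 9 were all libraries except both of cMN3 at e10.5 and replicate 1 of cMN4 at e10.5.

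From e10.5 to e11.5, 6 of the 16 receptor genes rose and 2 fell, beside 26.6% and 23.1% of all genes (7351 higher and 2252 lower on log2(TPM + 1), against 4799 and 4172 here), with a list median of 0.59. Tacr1, the receptor for substance P, had 0 counts in both cMN3 libraries at e10.5 and 11.96 and 6.29 CPM at e11.5. By counting error alone, Tacr1 was at least 90.9-fold higher at e11.5. In cMN4 it went from 0.694 and 0 CPM to 5.53 and 5.48 CPM, and in cMN7 from 0.595 and 1.04 CPM to 4.79 and 3.20 CPM. The adjusted p of the age difference was 6.45e-05. Sstr2 fell by 0.62 on the log2 scale over all nuclei (SE 0.18, adjusted p = 0.0121), a call not made on log2(TPM + 1). By nucleus its log2 difference was -1.31 in cMN3 (adjusted p = 0.0107), -0.74 in cMN4 (adjusted p = 0.112) and 0.18 in cMN7 (adjusted p = 0.68), and the difference between cMN3 and cMN7 in this did not pass (adjusted p = 0.0937).

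**Figure D4:**
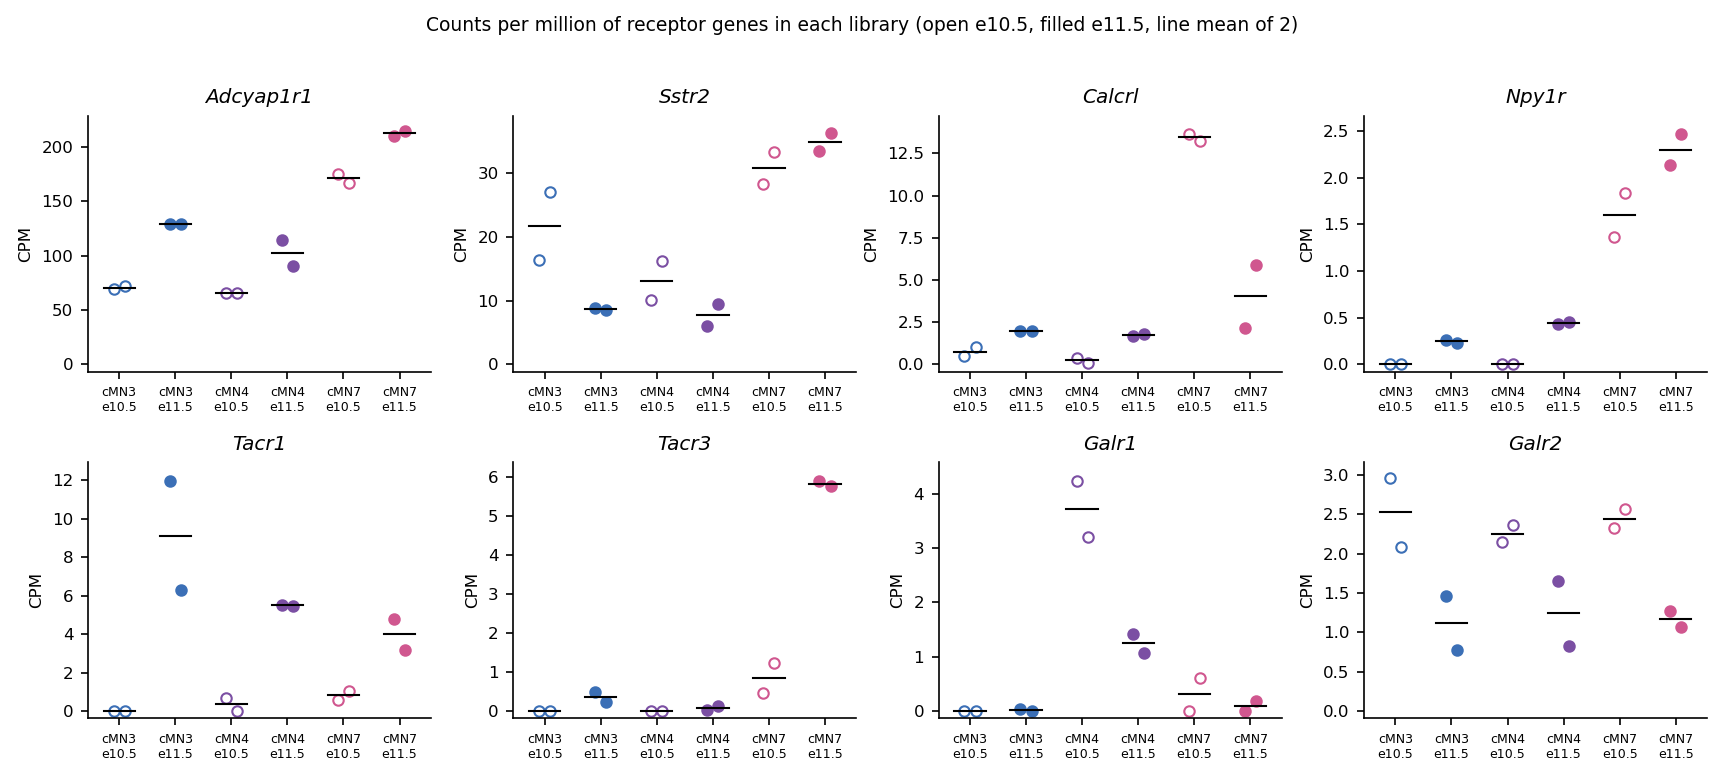
TMM-scaled CPM of 8 receptor genes in the 12 libraries (open circles e10.5, filled circles e11.5, lines the mean of 2), with a separate linear axis for each gene. Adcyap1r1, Sstr2, Calcrl, Npy1r and Tacr3 are highest in cMN7, Galr1 is highest in cMN4 at e10.5 (3.21 and 4.23 CPM), and Tacr1 is near 0 in each nucleus at e10.5.

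Genes that cut, amidate, package and release peptides were a second list of 30, all matched and all tested. Between cMN3 and cMN7, 5 were higher and 2 lower in cMN3, and between cMN4 and cMN7, 5 were higher and 4 lower in cMN4, beside the shares of all genes given above for these comparisons (5.44% and 5.89%, 4.73% and 4.89%). The list's median log2 differences were 0.20 and 0.062. Pam, which amidates the end of VIP, PACAP, galanin, NPY and other peptides, was far higher in both ocular motor nuclei. It stood at 217 and 205 CPM in cMN3 and 168 and 183 CPM in cMN4 at e10.5, against 29.9 and 32.9 CPM in cMN7. At e11.5 it was 96.4 and 125 CPM in cMN3, 84.2 and 138 CPM in cMN4 and 17.4 and 20.7 CPM in cMN7. No cMN7 library reached the level of any ocular library. The log2 difference from cMN7 was 2.64 (SE 0.16, adjusted p = 7.59e-07) for cMN3 and 2.51 (SE 0.16, adjusted p = 1.19e-06) for cMN4. Pcsk1, a prohormone convertase, was also higher in cMN4 than in cMN7 by 1.96 (SE 0.29, adjusted p = 0.000807), with 9.65 and 9.5 CPM in cMN4 at e11.5, the group with most Vip. In cMN3 it stood at 4.70 and 6.87 CPM at e10.5 and at 3.31 and 2.11 CPM at e11.5, the latter overlapping cMN7, where all 4 libraries lay between 1.07 and 2.17 CPM. Its log2 difference for cMN3 against cMN7 was 2.25 at e10.5 (adjusted p = 0.00415) and 0.42 at e11.5 (adjusted p = 0.834), a change with age that did not pass (adjusted p = 0.117). Over both ages it was 1.33 (SE 0.28, adjusted p = 0.00965), which was lost without cMN3_e11.5 replicate 1 (adjusted p = 0.0678), without cMN7_e10.5 replicate 1 (adjusted p = 0.064) and on log2(TPM + 1) (adjusted p = 0.0861).

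The synaptotagmins of dense core vesicles went in opposite directions. Syt7, a calcium sensor of vesicle release, was higher than in cMN7 by 1.14 in cMN3 (SE 0.12, adjusted p = 6.35e-05) and by 1.08 in cMN4 (SE 0.12, adjusted p = 9.8e-05). Syt4 was lower, by -2.41 in cMN3 (SE 0.14, adjusted p = 6e-07) and -1.91 in cMN4 (SE 0.14, adjusted p = 3.75e-06). Its cMN7 level went from 148 and 146 CPM at e10.5 to 511 and 416 CPM at e11.5, while the ocular libraries stayed between 40.9 and 82.4 CPM. The nuclear difference itself changed between the ages, by -1.22 on the log2 scale for cMN3 (adjusted p = 0.0423, a test that 2.7% of all genes passed) and by -1.84 for cMN4 (adjusted p = 0.0185, passed by 0.333%). Scg2, a granin and itself the precursor of secretoneurin, set cMN4 apart. The cMN4 libraries held 48.2 and 40.3 CPM at e10.5 and 92.7 and 66.5 CPM at e11.5, below every library of cMN3 and cMN7, which ranged from 119 to 255 CPM. The log2 difference of cMN4 from cMN7 was -1.70 (SE 0.14, adjusted p = 7.38e-06), and that of cMN3 from cMN4 was 1.67 (SE 0.14, adjusted p = 2.28e-05). Pcsk2, a convertase that acts with Pcsk1, was likewise lower in cMN4 than in cMN3, which exceeded it by 1.25 (SE 0.16, adjusted p = 0.000793), and Pcsk5 by 1.89 (SE 0.38, adjusted p = 0.0134). On log2(TPM + 1) the adjusted p for Pcsk2 was 0.0566.

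Over the receptors, the processing genes and 54 other peptide genes together, 66 of 108 were tested, and 13 passed between cMN3 and cMN7, 16 between cMN4 and cMN7 and 6 between cMN3 and cMN4, beside 11.3%, 9.62% and 7.06% of all genes. With the replicate number as a block, the last count was 12, and 11 with a block at e11.5 only. Without replicate 1 of cMN3 at e11.5, the first count was 8. From e10.5 to e11.5, 12 of the 30 processing genes rose and 3 fell, beside 26.6% and 23.1% of all genes, with a list median of 0.33. Interneuron and erythroid markers rose with age too, and their part in this and in the other age differences was not tested. Rab3a, a vesicle GTPase, rose by 1.24 (SE 0.14, adjusted p = 4.65e-05), Cpe, the carboxypeptidase that trims cut peptides and the list's highest gene at a mean of 291 TPM, by 0.68 (SE 0.091, adjusted p = 0.000116), and Scg2 by 0.82 (SE 0.11, adjusted p = 0.000112). Cpe stood at 207 to 230 CPM in the 6 libraries at e10.5 and 265 to 439.7 CPM at e11.5, and it passed in no comparison of nuclei (adjusted p of 0.371 to 0.992). Pam fell by 0.77 on the log2 scale (SE 0.13, adjusted p = 0.000451), but by 0.12 on log2(TPM + 1), where it did not pass.

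**Figure D5:**
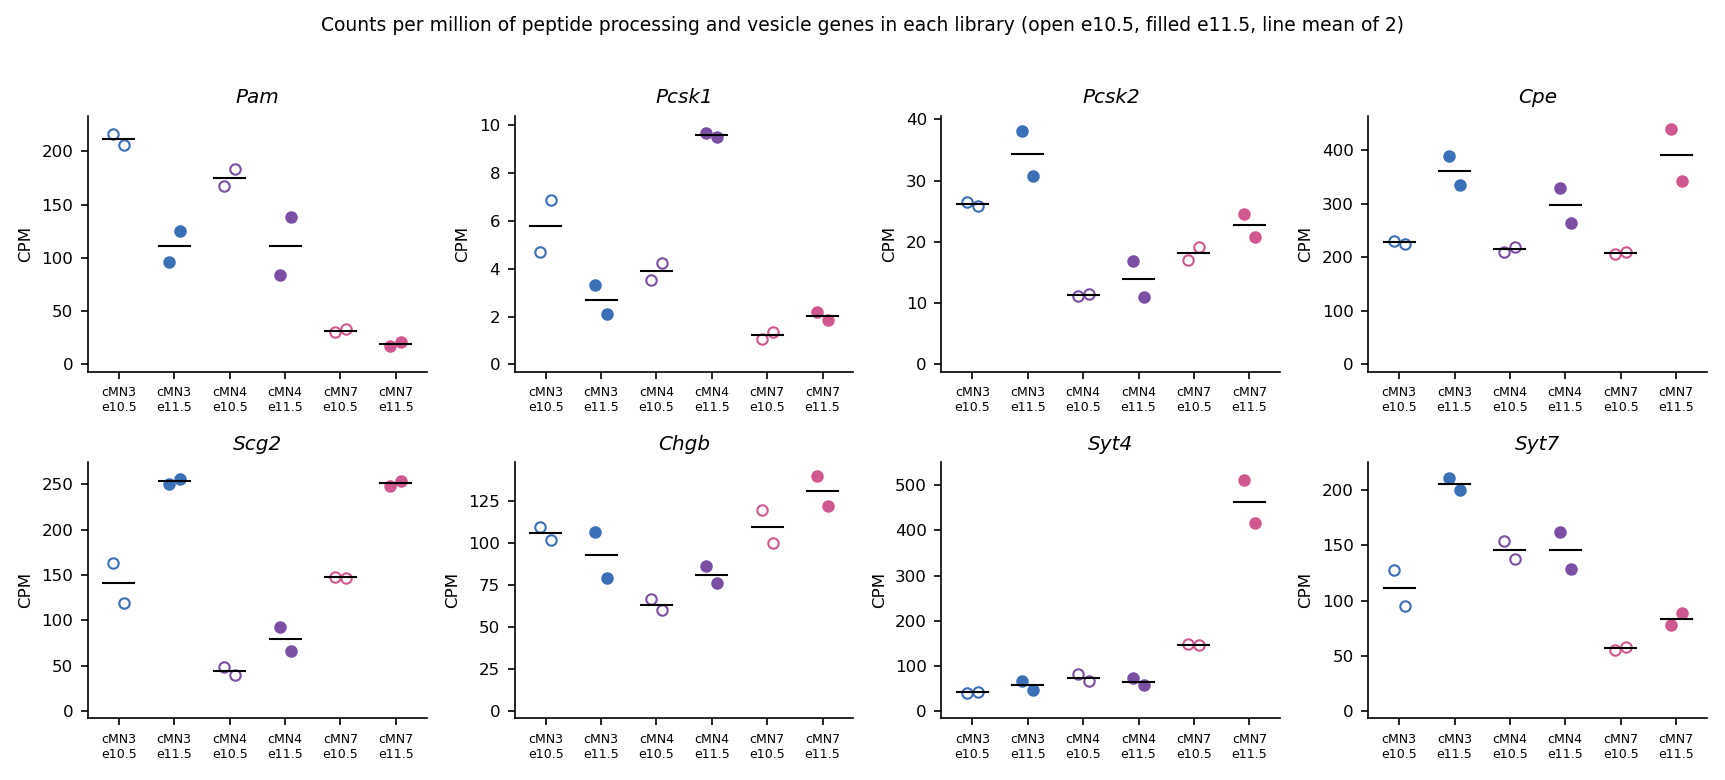
TMM-scaled CPM of 8 genes of peptide processing and vesicles in the 12 libraries (open circles e10.5, filled circles e11.5, lines the mean of 2), with a separate linear axis for each gene. Pam is at or below 32.9 CPM in cMN7 and at or above 84.2 CPM elsewhere, Scg2 is lowest in cMN4, and Syt4 reaches 416 and 511 CPM in cMN7 at e11.5.

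The other peptide genes were mostly scarce. Of 54 listed, Kiss1 was not matched, 53 were matched and 20 passed the filter. The highest was Nucb2, the nesfatin precursor, at a mean of 18.6 TPM, followed by Nmb at 7.01 TPM, Pomc at 4.25 TPM, Rln1 at 3.54 TPM and Ghrl at 2.79 TPM, against means of 31.0 to 56.1 TPM for Gal, Adcyap1, Sst and Vip. This order is of means over all 12 libraries only: Nucb2 never fell below 12.3 TPM, while Sst averaged 5.53 TPM at e10.5 and 1.52 TPM at e11.5 in cMN7. Pdyn, the dynorphin precursor, was the 1 gene of this list past the test against cMN7. In cMN7 it stood at 0.714 and 1.71 CPM at e10.5 and 12.5 and 5.40 CPM at e11.5. The cMN4 libraries held 0 and 0 CPM at e10.5 and 1.02 and 0.242 CPM at e11.5, and the cMN3 libraries 0.174 to 1.10 CPM. The adjusted p against cMN7 was 0.00209 for cMN4 and 0.0224 for cMN3. The cMN3 call was lost without any 1 of 5 libraries, namely cMN3_e10.5 replicate 2, either library of cMN3_e11.5, cMN7_e10.5 replicate 2 and cMN7_e11.5 replicate 1, with an adjusted p of up to 0.11. Between cMN3 and cMN4, 0 of the 20 passed in edgeR, 1 at an unadjusted p of 0.05 and 0 in DESeq2. From e10.5 to e11.5, 7 of the 20 rose and 0 fell in edgeR (1 lower at an unadjusted p of 0.05, and 1 in DESeq2), beside 26.6% and 23.1% of all genes, with a list median of 0.95, or 0.30 with groups at 0 counts set at the floor. Among them were Pdyn (adjusted p = 0.00161) and Pnoc, the nociceptin precursor (adjusted p = 0.00103), which was at 0 counts in 5 of the 6 libraries at e10.5 and between 0.526 and 2.50 CPM in all 6 at e11.5.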

How the data were processed

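Bulk RNAseq was measured in 12 libraries of sorted cMN3, cMN4 and cMN7 neurons, 2 per nucleus and age, at 13991802 to 30536210 counts. The authors aligned 100 bp paired reads with STAR to GRCm38 and quantified genes with RSEM, and deposited expected counts and TPM per gene. Tool versions and strandedness are not given in the sources used here. The members were chosen with earlier results of these data known. The lists of pathway genes were written by function and not by the values in these libraries, although earlier results were known by then. Expected counts were rounded to whole numbers, filtered (10 counts in at least 2 libraries, total 15), scaled by TMM and tested in 1 fit over 6 groups with edgeR 4.0.16 (quasi-likelihood, Benjamini-Hochberg over 18022 genes, 6 residual degrees of freedom) in R 4.3.3. Alternatives were DESeq2 1.42.0, its library factors, no filter, limma 3.58.1 on log2(TPM + 1), a replicate block and leaving out each library. Genes named came mainly from the members, the receptor genes past the filter and the 3 genes most correlated with each member. Of the other pathway genes, those with the smallest p past the test and those with the highest mean TPM were named. Receptor genes and genes of high TPM could be named without passing the test. Marker lists covered motor neurons, sensory ganglia, sympathetic neurons, interneurons, neural crest and glia, erythroid, endothelial and mesenchymal cells. Fits were tested on simulated data, and replicates differed beyond sampling noise.

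Replicate numbers were checked by correlating replicate differences between nuclei. The correlations ranged from 0.0036 to 0.11 for e10.5 and from 0.55 to 0.70 for e11.5, so that the numbers paired the libraries at e11.5 only. The labels do not say what a number stands for.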

Additional observations from a re-analysis of the deposited data

Results flagged for a closer look

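Syt4, the vesicle synaptotagmin, differed between nuclei by an amount that itself differed between the ages. The log2 difference of cMN3 from cMN7 changed from the younger to the older age by -1.22 (SE 0.27, adjusted p = 0.0423 in edgeR, against 2.7% of all genes past that test), and that of cMN4 from cMN7 by -1.84 (SE 0.27, adjusted p = 0.0185, against 0.333%). Both comparisons share the cMN7 libraries, and the ages were prepared in different ways, which cannot be told apart from age.

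Gal moved in opposite directions. Its log2 difference of cMN3 from cMN7 changed by -2.66 between e10.5 and e11.5, which is the same number as the gap between its age differences in cMN3 and cMN7, and the gap between its age differences in cMN4 and cMN7 was -2.50. In CPM all libraries of each group lay on the side stated. In TPM cMN3 (38.18 and 48.35) and cMN7 (45.77 and 30.36) overlapped at e10.5. No test of this difference is given, because Gal was chosen with its levels known.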

How the results depend on the processing

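Pathway genes past the test between cMN3 and cMN7 numbered 13, and 21 with no filter on low counts, 6 at e11.5 alone (chosen after seeing the data) and 8 to 14 when each library was left out in turn. Between cMN3 and cMN4 they numbered 6, and 15 with no filter, 10 with DESeq2, 12 with a replicate block, 11 with a replicate block at e11.5 only (chosen after seeing the data) and 4 to 8 when each library was left out. Between cMN4 and cMN7 the count of 16 ranged from 14 to 18 and between the ages the count of 30 from 26 to 32 in the same way. Testing more genes or fewer samples is part of how the filter and left-out settings are made; for the others the cause was not tested. The blocks changed no other count of pathway genes by over 1.5 times. Over all genes, 1272 passed between cMN3 and cMN4 (644 higher, 628 lower), against 1005 and 1113 with no filter, 964 and 1139 with DESeq2, 1025 and 951 with the block, and 209 and 392 with limma on log2(TPM + 1). The last scale shifted the median of all genes by -0.21 for cMN3 against cMN7, -0.15 for cMN3 against cMN4 and 0.33 between the ages. Of the members' log2 differences under the alternatives, 1695 moved by less than the spread between replicates and 177 by more. Some values rest on few counts: Tac1 in cMN4 and cMN7 at e10.5, Npy at e10.5, Calca and Calcb. The cause of these low counts was not tested.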
